A study of Mus musculus with 20 samples.

Results

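The genes of intraflagellar transport and of the BBSome were followed in the retina of young and old C57BL/6J mice, with and without NACET. NACET is the ethyl ester of N-acetyl-L-cysteine, a precursor of cysteine and glutathione that was given in the drinking water. Members were taken by gene symbol alone: every Ift gene with a number, every Bbs gene with a number, Tulp1 to Tulp4, the genes whose symbols begin with Dync2, and Ttc8, Ttc21b, Kif3a, Kif3b, Kif3c, Kifap3, Kif17, Arl6, Arl3 and Rp2h. The rule found 36 of the 35006 genes listed for each library. No measured value entered it, but the members were chosen with earlier results of these data known. Their shares of called genes are therefore no test of the group. Each of the 36 had reads in all 20 libraries and passed the filter on low counts in every comparison. The 4 groups were young controls of 119 days (n = 4), young mice given NACET (n = 6, of which 4 were 129 days and 2 were 119 days old by their titles), old controls of 668 days (n = 4) and old mice given NACET (n = 6, with 2 mice each of 668, 581 and 574 days). The dose was 50 mg/kg a day for 5 days, 1 retina was sequenced from each mouse, and all mice were wild type.

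Photoreceptors carry a modified primary cilium whose tip is expanded into the light-sensitive outer segment. Proteins made in the inner segment reach it through the narrow connecting cilium. Kinesin-2 motors carry trains of the IFT-B and IFT-A complexes outwards along the axoneme, and the dynein-2 motor carries them back. The BBSome is a coat-like complex that rides on these trains and removes membrane proteins from the cilium, and it is recruited by the small GTPase Arl6. Tubby-like proteins bind phosphoinositides and bring receptors to the IFT-A complex. A separate route for lipid-modified proteins is controlled by the GTPase Arl3 and by Rp2, its GTPase-activating protein. Inherited defects in many of these genes cause retinal degeneration, alone or within Bardet-Biedl syndrome and related ciliopathies.

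Many ciliary genes share a promoter element, the X-box, which RFX transcription factors bind. The X-box was searched on both strands of promoter windows from RefSeq (build GRCm38.p6), which run from 250 bases before to 50 bases after the annotated start, with half-sites set 1 to 3 bases apart and 11 fixed positions. A window was given for 32 of the 36 members. A match at all 11 positions stood in 3 of these 32 genes (9.38%), against 445 of 27025 genes overall (1.65%), and a match with at most 1 mismatch stood in 9 of 32 (28.1%) against 10.8%. This is a description of the letters in these windows and shows no binding. The 3 members with a full match are shown as 30 bases with the match in capitals, since 2 of them, Bbs1 and Kif17, recur in the results.
Bbs1: tcccaggcGTCGCCTTGGCAACcagctcag
Ift57: ggcagccgGTCACCACGGCAACcagacccg
Kif17: tcacggagGTTGCCCAGCAACggcgaacgc
The Bbs1 sequence lies at chr19:4906605-4906634 on the plus strand, with its centre 8 bases after the start of this minus-strand gene. The Ift57 sequence is at chr16:49699199-49699228 on the minus strand, and its centre is 80 bases before the start. In Kif17 the match was found at chr4:138262170-138262199 on the plus strand, 66 bases before the start. Matches with 1 mismatch were found in Bbs4, Bbs7, Bbs10, Dync2h1, Ift74 and Ift88.

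The libraries held 17700500 to 31081959 reads counted in genes. Values are given as counts per 1000000 counts of the library (CPM), with library totals scaled by TMM factors of edgeR taken over all 20 libraries. The test of each pair of groups took its own TMM factors, so the printed CPM are not exactly on its scale. A value of 10 CPM rests on about 177 to 311 reads. The 14 rod markers summed to between 73376 and 121433 CPM over the libraries, so the defining markers of retina were present throughout. Carry-over from neighbouring tissue differed between libraries. The 9 markers of corneal epithelium summed to 448 CPM in old control replicate 2 and to at most 408 CPM in the young NACET group, and lens crystallins and their companions reached 10807 CPM in old NACET replicate 1 against at most 21.7 CPM in any other library. Old control replicate 4 was labelled male but held 59555 reads of Xist. Both young groups included 2 mice labelled female, whereas all old mice were labelled male, so age and labelled sex are partly confounded. The transcript levels were measured in whole retina, in which fewer cells of a type and less RNA per cell cannot be told apart.

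Levels between genes were compared per kilobase of exon (CPM per kb, with exon lengths from the GENCODE annotation of mm9), as mean ± SD over the 20 libraries. The highest members belonged to the lipidated cargo route and the tubby-like family. Arl3 stood at 232 ± 25.5 CPM per kb and Tulp1, which is made almost only in photoreceptors, at 193 ± 19.1 CPM per kb. The rank of Arl3 rests on its exon length of 822 bases, the shortest of the 36 genes. By reads alone, Arl3 stood at 191 CPM, below Bbs7 at 228 CPM and Bbs4 at 205 CPM, and Tulp1 gave 27.7% of the summed CPM of the 36 genes. Rp2h, the partner of Arl3, was far lower at 2.95 ± 0.24 CPM per kb. Of the other tubby-like genes, Tulp4 stood at 5.75 ± 0.20 and Tulp3 at 3.20 ± 0.45 CPM per kb, and Tulp2 was the lowest member at 0.27 ± 0.06 CPM per kb.

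The 7 BBSome subunits all lay above 20 CPM per kb. Bbs4 (80.8 ± 6.66) and Bbs7 (57.7 ± 4.78) led them, Bbs2 (46.6 ± 2.43) and Ttc8 (46.2 ± 2.94) were close to each other, and Bbs5 (30.8 ± 3.25), Bbs1 (24.6 ± 2.45) and Bbs9 (22.9 ± 2.26) followed. Arl6, which recruits the complex to membranes, stood at 73.5 ± 9.97 CPM per kb. The chaperonin-like proteins Bbs12 and Bbs10, which act in assembly of the BBSome, were lower at 18.5 ± 2.47 and 6.41 ± 0.49 CPM per kb.

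Among the trains themselves, the 10 IFT-B genes ranged from Ift46 at 6.77 ± 0.34 to Ift20 at 37.1 ± 2.44 CPM per kb. Ift20 is the IFT-B subunit that also sits at the Golgi, where it sorts membrane cargo for the cilium. Of the IFT-A genes that the rule took, Ift122 at 10.5 ± 0.71 and Ift140 at 8.26 ± 0.54 CPM per kb lay within this range. Ttc21b lay below it at 4.14 ± 0.21 CPM per kb. For the motors, the kinesin-2 adaptor Kifap3 (45.6 ± 3.08) and the motor subunit Kif3b (29.0 ± 2.01) exceeded Kif3a (19.6 ± 0.93) and Kif3c (18.7 ± 1.06), whereas the homodimeric kinesin Kif17 reached only 1.55 ± 0.21 CPM per kb. The dynein-2 light intermediate chain Dync2li1 stood at 14.6 ± 1.94 and the heavy chain Dync2h1 at 9.78 ± 0.72 CPM per kb. In all, 23 members lay above 10 CPM per kb. An exon length taken over all annotated transcripts can be longer than the transcript used in the retina, so the order of neighbouring genes rests on the annotation. In 8 genes (Bbs12, Ift57, Ift88, Kif17, Kif3a, Kif3c, Tulp2 and Tulp4) exons overlap those of another gene, and reads were counted without regard to strand.

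**Figure D1:**
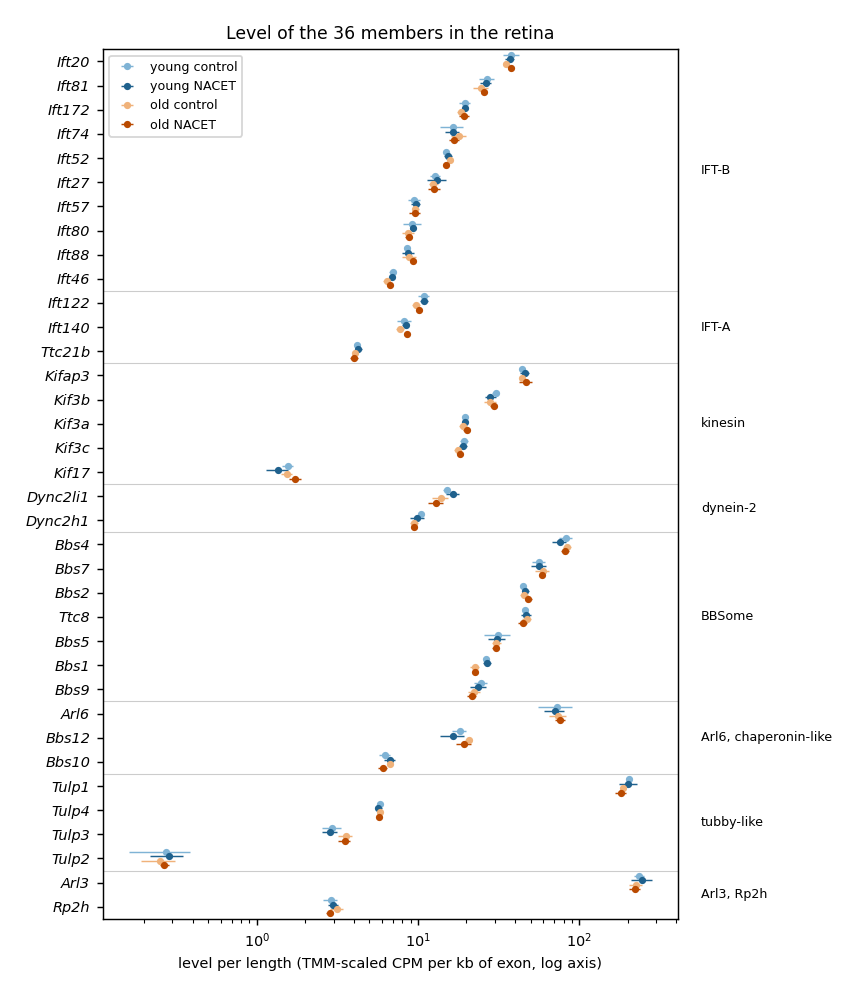
Level per length of the 36 members by role, in TMM-scaled CPM per kb of exon on a log axis, with the mean (point) and SD (bar) of young control (n = 4), young NACET (n = 6), old control (n = 4) and old NACET (n = 6) mice. Arl3 and Tulp1 lie to the right at about 232 and 193 CPM per kb over all libraries, Kif17 and Tulp2 to the left at 1.55 and 0.27, and the 4 groups of a gene sit close together.

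The spread of the members was taken over all 20 libraries, so it holds differences between the 4 groups as well as between mice. The coefficient of variation of CPM had a median of 7.76% for the 36 genes, against 11.1% for the 16993 genes tested across all groups. Part of that gap went with expression level, since genes with a mean of 10 CPM or more had a median of 8.37%, and the 34 members above the same limit 7.53%. Tulp4 was the steadiest at 3.46%, followed by Kif3a at 4.72% and Ift52 at 4.88%. The most variable were Tulp2 at 23.0%, at under 1 CPM on average, and Tulp3, Kif17, Arl6, Bbs12 and Dync2li1 at 13.3 to 14.0%. The summed CPM of all 36 ranged from 3966 to 4823 over the libraries.

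Some variation ran across many members at once and did not follow the groups. Young control replicate 1 held the highest value of its group for 21 of the 36 genes, and its median member lay 0.11 above the member's own mean on the log2 scale. Young NACET replicate 1 held the highest value of its group for 15 genes. Conversely, old control replicate 1 was lowest of its group for 22 genes, with its median member at -0.11. Rod markers showed the same order at these libraries: their summed level was highest of all 20 in young control replicate 1 at 121433 CPM and lowest of the old controls in replicate 1 at 80003 CPM. The TMM factors were 0.949 in young control replicate 1, 0.937 in young NACET replicate 1 and 1.05 in old control replicate 1. A lower factor raises every CPM of its library, and the same counts were not taken for all genes. Whether the shared part of the members' variation comes from rod content or from this scaling was not tested.

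**Figure D2:**
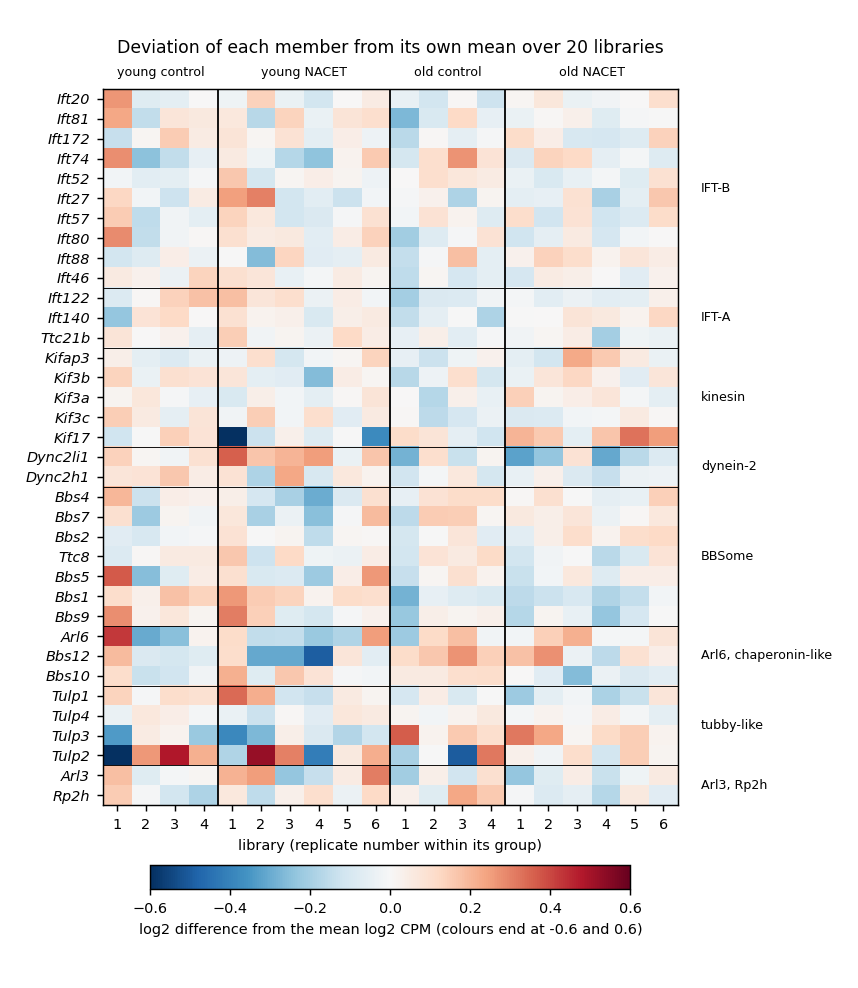
Log2 difference of each member from its own mean over the 20 libraries, with genes in rows by role and libraries in columns by group, red above and blue below the mean. Columns such as young control 1 (mostly red) and old control 1 (mostly blue) stand out across roles, whereas rows that change colour by age are few, with Bbs1 and Tulp3 among them.

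The first comparison asked how the retina differs between old and young untreated mice. No member passed the test at an adjusted p of 0.05 (edgeR quasi-likelihood test, Benjamini-Hochberg over 16484 genes), where 1.42% of all genes did. At an unadjusted p under 0.05 there were 5 members (13.9%), against 16.3% of all genes, and DESeq2 called 1, Bbs1. The median log2 difference was -0.04 for the members and -0.01 for all genes, with 14 members higher and 22 lower in old mice. Without TMM scaling, on library totals alone, the split was 19 higher and 17 lower, so no direction of the whole group can be read from these signs.

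The member with the smallest p was Bbs1, a BBSome subunit and the site at which Arl6 binds the complex. It lies at chr19:4886898-4906627 in mm9. In young controls it stood at 147, 139, 155 and 150.0 CPM, and in old controls at 112, 132, 130 and 128 CPM. All 4 old values lay below all 4 young values, which 10.3% of all genes tested also showed in one direction or the other. The log2 difference was -0.23 (SE 0.06, 95% interval -0.36 to -0.10, edgeR adjusted p = 0.0792). Without old control replicate 1, the lowest library, it was -0.17 (adjusted p = 0.140), and in mice labelled male alone, 2 young and 4 old, -0.19 (adjusted p = 0.369). Without old control replicate 4, the library with Xist reads, it was -0.24 (adjusted p = 0.177). The only other member without overlap was the IFT-B subunit Ift52, with 42.2, 40.8, 40.9 and 42.5 CPM in young and 42.7, 45.7, 44.7 and 44.2 CPM in old controls, a log2 difference of 0.09 (SE 0.06).

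The next members by p came from several roles. Tulp3, which links the IFT-A complex to receptors bound for the cilium, stood at 16.8, 22.0, 21.6 and 18.2 CPM in young controls. In old controls it stood at 27.3, 21.6, 23.7 and 22.8 CPM, overlapping the young range, with a log2 difference of 0.28 (SE 0.11, edgeR adjusted p = 0.227). Bbs12 was at 44.1 ± 4.48 CPM in young and 50.2 ± 2.50 CPM in old controls (log2 0.19, SE 0.08, adjusted p = 0.246). One young control, replicate 1, had 50.8 CPM of Bbs12 where the other 3 had 41.4 to 42.4, and without it the log2 difference was 0.26 with an edgeR adjusted p of 0.0419. The IFT-A subunit Ift122 (log2 -0.16, SE 0.07, adjusted p = 0.264) and the dynein-2 heavy chain Dync2h1 (log2 -0.13, SE 0.05, adjusted p = 0.272) had lower means in old mice.

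By role, the signs of the age difference in untreated mice were the same within some groups although no member was called. All 5 kinesin genes, all 3 IFT-A genes and both dynein-2 genes had lower means in old mice, with log2 differences from -0.16 to -0.01, but on library totals 2 of the kinesin genes and 1 of the IFT-A genes had higher means instead. The 10 IFT-B genes split into 4 higher and 6 lower, and the BBSome subunits into 4 higher and 3 lower. Arl6, Bbs10 and Bbs12 all had higher means under either scaling, with log2 differences from 0.02 to 0.19 under TMM. Arl6 was the lowest at 0.02 (SE 0.14) and ran from -0.08 to 0.19 over the other settings of the fit, whereas Bbs10 and Bbs12 stayed positive. The 95% interval of the difference lay within a 1.25-fold change in either direction for 29 of the 36 members (80.6%), against 46.3% of all genes and 69.6% of genes with a mean of 10 CPM or more. The rod markers had a median log2 difference of -0.18 in the same comparison, with 13 of 14 lower and none called. Of 9 cone markers 1 had a higher mean in old controls. All 8 pigment epithelium markers (median log2 0.71), all 6 corneal markers tested (median log2 3.12) and all 7 microglia markers had higher means. None of these markers was called, and the part of these cell types in the members' values was not tested.

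**Figure D3:**
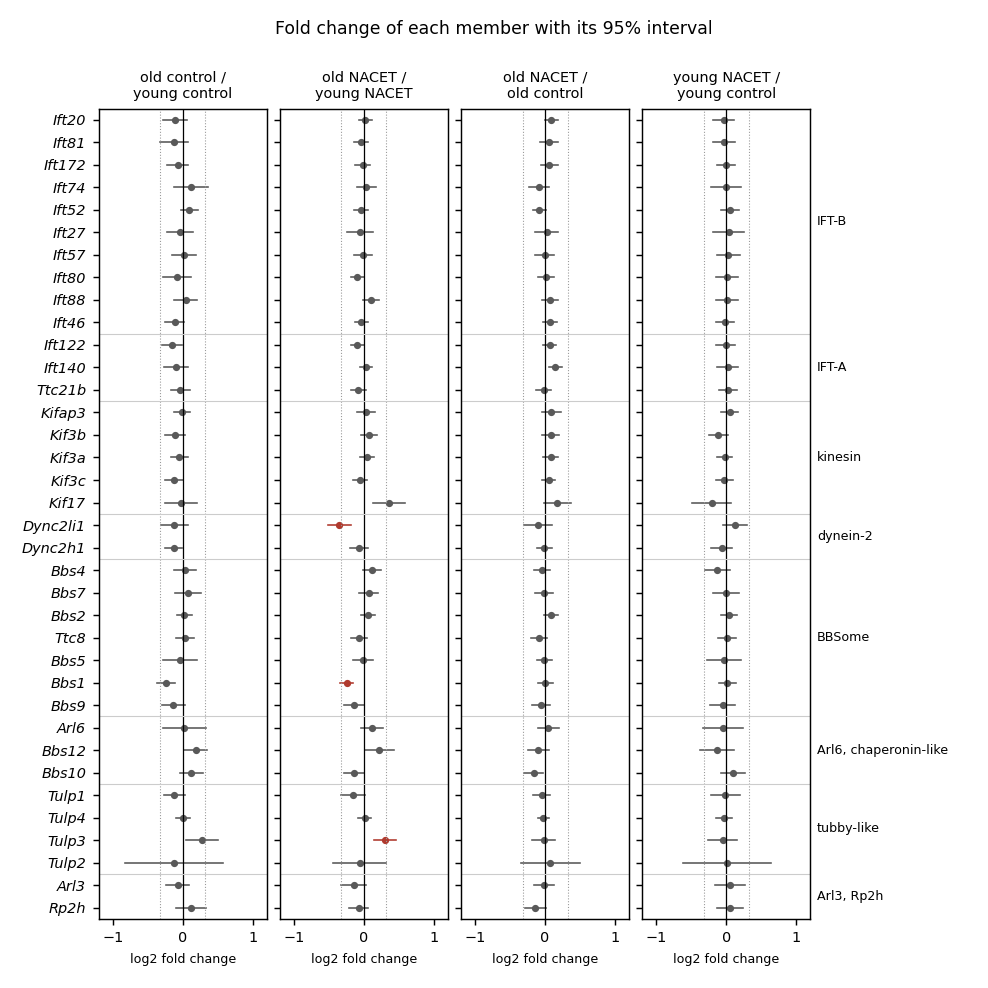
Log2 fold change (point) and 95% interval (line) of each member, by role, in the 4 pairwise comparisons, with called genes (adjusted p under 0.05) in red and dotted lines at a 1.25-fold change. Most intervals lie between the dotted lines and cross 0, those of Tulp2 are wide in every panel, and the only called genes are Bbs1, Dync2li1 and Tulp3 between old and young NACET mice.

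The same age difference was then examined among mice given NACET. Here 3 members were called (8.33%), Bbs1 and Dync2li1 lower and Tulp3 higher in old mice, where 4.88% of all genes were called. At an unadjusted p under 0.05 the count was 6 members (16.7%), against 21.1% of all genes. DESeq2 called the same 3 and Kif17. The median log2 difference of the members was -0.03, and 15 were higher and 21 lower (21 higher and 15 lower on library totals).

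Bbs1 ranged from 139 to 164 CPM in young NACET mice (median 149) and from 121 to 135 CPM in old NACET mice (median 125). The groups did not overlap, as for 3.35% of all genes tested, and no other member showed this. Bbs1 fell by 15.8% (log2 -0.25, SE 0.05, 95% interval -0.34 to -0.15, edgeR adjusted p = 0.00453). Each of the 3 ages within the old NACET group lay below every young NACET mouse, with 122 and 125 CPM at 668 days, 128 and 121 CPM at 581 days and 124 and 135 CPM at 574 days. Set against the young NACET mice, the 2 mice of 668 days alone gave -0.27 (edgeR adjusted p = 0.122) and the 4 younger ones -0.24 (adjusted p = 0.0436). Over 20 other settings of the fit (normalization, filter, covariates and single libraries left out), the adjusted p ran from 9.67e-06 to 0.0289, and without old NACET replicate 1, the library with lens transcripts, it was 0.0125.

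Dync2li1, the light intermediate chain of the motor that returns trains from the ciliary tip, lies at chr17:85025836-85054898 in mm9. It ranged from 18.6 to 24.5 CPM in young NACET mice (median 21.8) and from 15.3 to 20.3 CPM in old NACET mice (median 16.7). One old mouse, replicate 3 at 20.3 CPM, and one young mouse, replicate 5 at 18.6 CPM, lay in the range of the other group. Dync2li1 fell by 21.5% (log2 -0.35, SE 0.08, 95% interval -0.51 to -0.18, edgeR adjusted p = 0.0154), and the adjusted p stayed between 0.00139 and 0.0453 over the same 20 settings. The call was lost with either part of the old group alone, at -0.46 for the 2 mice of 668 days (adjusted p = 0.0769) and -0.30 for the 4 younger ones (adjusted p = 0.111). Its partner in the motor, the heavy chain Dync2h1, had a log2 difference of -0.07 (SE 0.06). In untreated mice Dync2li1 stood at 21.1, 19.4, 18.9 and 20.4 CPM in young and 15.7, 20.5, 17.5 and 19.4 CPM in old controls, a log2 difference of -0.12 (SE 0.09, edgeR adjusted p = 0.557).

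Tulp3, at chr6:128271158-128305869 in mm9, went the other way. It ranged from 16.3 to 21.8 CPM in young NACET mice (median 19.3) and from 21.4 to 26.4 CPM in old NACET mice (median 23.3). A single young mouse, replicate 3 at 21.8 CPM, lay above the lowest old mice. Tulp3 rose by 23.7% (log2 0.31, SE 0.07, 95% interval 0.15 to 0.46, edgeR adjusted p = 0.0254). The call did not survive the removal of old NACET replicate 1, 2 or 5 (adjusted p = 0.0596, 0.0664 and 0.0513), of which replicate 1 carried the lens transcripts, nor did it hold for the 2 mice of 668 days (log2 0.44, adjusted p = 0.0872) or the 4 younger ones (0.24, adjusted p = 0.168) alone. It was also lost among mice labelled male (log2 0.31, edgeR adjusted p = 0.0548). The other tubby-like genes were not called, with log2 differences of -0.16 for Tulp1 (SE 0.08), -0.06 for Tulp2 (SE 0.18) and 0.02 for Tulp4 (SE 0.04).

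Kif17, a kinesin-2 of the cilia of sensory neurons, came next. It stood at 4.62 to 7.16 CPM in young NACET mice (median 6.53) and at 6.73 to 8.80 CPM in old NACET mice (median 7.97), with a log2 difference of 0.36 (SE 0.11, 95% interval 0.13 to 0.59, edgeR adjusted p = 0.0653). Young NACET replicates 1 and 6, at 4.62 and 5.38 CPM, were the 2 lowest libraries of all 20 for this gene. Bbs12 followed at 40.2 ± 6.61 CPM in young and 46.8 ± 4.94 CPM in old NACET mice (log2 0.22, SE 0.10, adjusted p = 0.202).

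The 10 IFT-B genes lay between -0.09 and 0.10 on the log2 scale and the 3 IFT-A genes between -0.09 and 0.03. The 5 kinesin genes ran from -0.05 to 0.36, with Kif17 the highest, and Arl6, Bbs10 and Bbs12 from -0.15 to 0.22. Among the BBSome subunits other than Bbs1, the range was from -0.14 for Bbs9 to 0.11 for Bbs4. Arl3 and Rp2h were at -0.14 (SE 0.08) and -0.07 (SE 0.06). The 95% interval lay within a 1.25-fold change for 29 members (80.6%), against 60.3% of all genes, and among genes of 10 CPM or more the shares were close, at 85.3% for the members and 85.0% for all. Rod markers were lower in the same mice: their sum ranged from 87282 to 119115 CPM in young NACET and from 73376 to 89169 CPM in old NACET mice, with 13 of 14 markers at a lower mean, 2 of them called lower and 1 marker called higher. Other cell types moved with the same comparison. Of the 9 cone markers 2 were called lower, and their sum ranged from 1943 to 2448 CPM in young NACET and from 1624 to 1941 CPM in old NACET mice. Pigment epithelium markers, 2 of 8 called lower, summed to between 106 and 209 CPM in the young and between 43.7 and 128 CPM in the old. Of 6 corneal markers tested 4 were called lower, and the 9 listed summed to between 6.67 and 408 CPM in the young and between 3.25 and 19.2 CPM in the old. Microglia markers, 3 of 7 called higher, summed to between 18.7 and 32.4 CPM in the young and between 28.7 and 35.6 CPM in the old. The part of these cell types in the members' age differences was not tested.

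**Figure D4:**
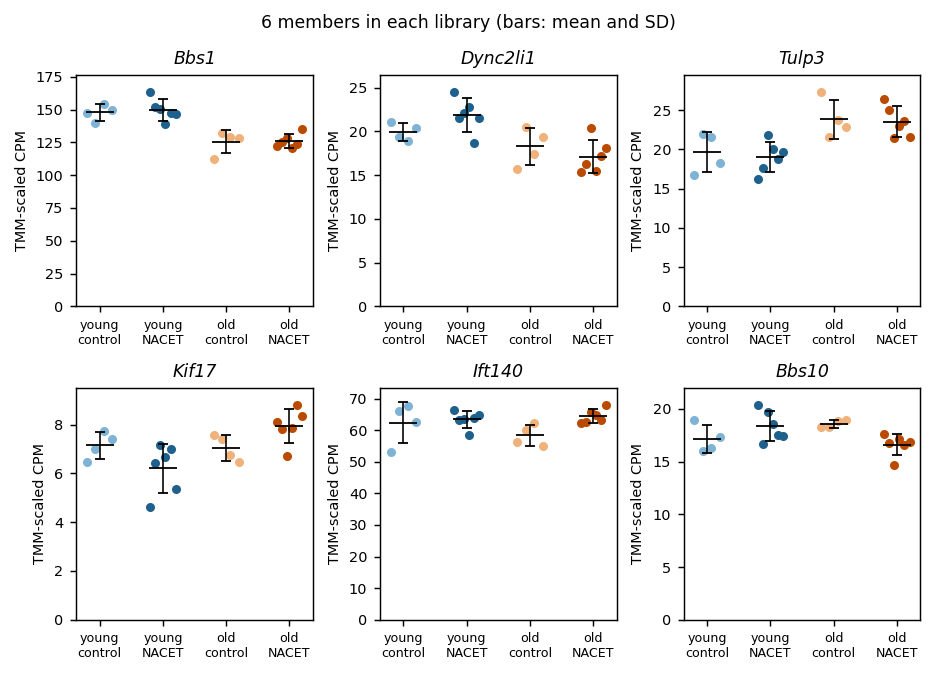
TMM-scaled CPM of 6 members in each library by group, on axes from 0, with 1 point per mouse in replicate order and bars for the mean and SD. Bbs1 is lower in both old groups with no overlap (121 to 135 CPM in old NACET against 139 to 164 CPM in young NACET mice), Dync2li1 and Tulp3 overlap slightly, and Ift140 and Bbs10 separate the old NACET from the old control mice only narrowly.

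Since the untreated and the NACET-treated age comparisons shared no library, their values for the members can be set side by side. Over the 36 genes the log2 differences had a Pearson's r of 0.56 and a Spearman's rank correlation of 0.52, and 25 genes (69.4%) had the same sign. Over the 16207 genes tested in both, Pearson's r was 0.09, Spearman's rank correlation was 0.44 and 68.1% had the same sign. By rank and by sign the members were thus close to all genes. These are correlations across genes, which are not independent replicates. Some corneal genes had large differences of opposite sign without and with NACET, with Dsp at 3.93 and -4.69 and Krt5 at 3.86 and -4.64. The part of such genes in Pearson's r over all genes was not tested. Bbs1 (-0.23 and -0.25), Tulp3 (0.28 and 0.31) and Bbs12 (0.19 and 0.22) had nearly the same log2 difference in both. Dync2li1 was at -0.12 and -0.35, Kif17 at -0.02 and 0.36, and Bbs10 at 0.12 and -0.15. The test of these differences is the interaction given last, in which none was called.

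**Figure D5:**
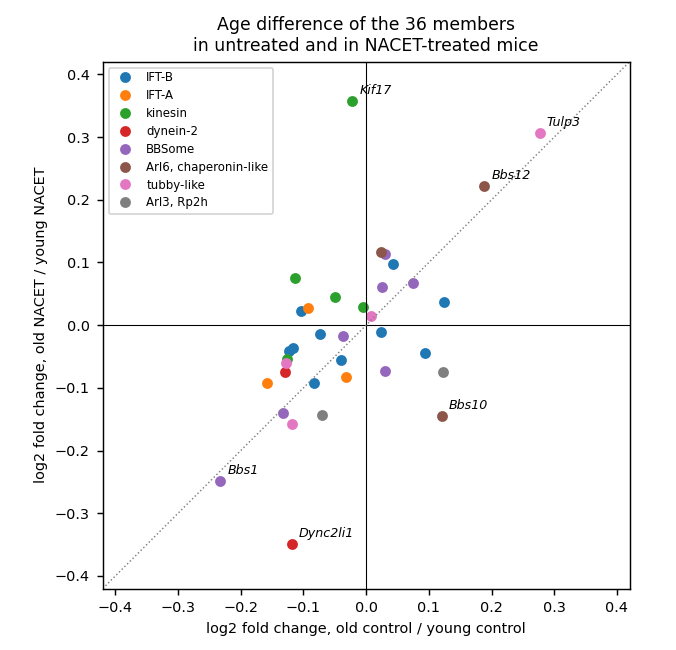
Log2 fold change of the 36 members between old and young mice, without NACET on the x axis and with NACET on the y axis, coloured by role, with a dotted line where both are equal. Bbs1, Tulp3 and Bbs12 lie near the line far from 0, Kif17 and Dync2li1 lie off it, and most genes gather within about 0.15 of 0 on both axes.

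The effect of NACET was examined first in old mice. No member was called, where 0.543% of all genes were, and 3 members (8.33%) had an unadjusted p under 0.05, against 14.4% of all genes. DESeq2 also called none. The 36 genes split into 18 higher and 18 lower with NACET, their median log2 difference was 0.00, and their median absolute difference was 0.06 against 0.08 for all genes.

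Ift140, an IFT-A subunit, had the smallest p. It stood at 56.4, 60.1, 62.2 and 55.0 CPM in old controls and from 62.3 to 68.0 CPM in old NACET mice (median 64.2). The groups just failed to overlap, the highest control and the lowest treated mouse being 62.21 and 62.26 CPM. Its log2 difference was 0.14 (SE 0.04, edgeR adjusted p = 0.152). Bbs10 was the other member without overlap, at 18.3, 18.3, 18.9 and 19.0 CPM in old controls and 14.7 to 17.6 CPM in old NACET mice (median 16.8), a log2 difference of -0.16 (SE 0.06, adjusted p = 0.251). Non-overlap was seen for 3.75% of all genes. When only mice of 668 days were compared, 2 treated against 4 controls, the log2 differences were 0.10 for Ift140 (adjusted p = 0.725) and -0.11 for Bbs10 (adjusted p = 0.744), and the groups held no untreated mice of 574 or 581 days.

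Ift20 (log2 0.09, SE 0.04), Kif17 (0.18, SE 0.09) and Rp2h (-0.14, SE 0.07) completed the 5 smallest p in old mice, with edgeR adjusted p of 0.336, 0.386 and 0.400. All 5 kinesin genes had higher means with NACET, between 0.05 and 0.18 on the log2 scale under each scaling tried, and none was called. Over the other settings of the fit, the lowest log2 difference was -0.04 for Kifap3 and -0.01 for Kif3c. It stayed positive for Kif3a, Kif3b and Kif17. The 2 treated mice of 668 days, the age of the controls, had 175 and 169 CPM of Kifap3 against a control mean of 177 CPM. Kif3c was at 121 and 122 CPM against 123 CPM, whereas Kif3a, Kif3b and Kif17 lay above their control means in these 2 mice. Over all old mice, all 11 bipolar, amacrine and ganglion cell markers tested and 3 of 14 rod markers had higher means with NACET, none called. Of 6 corneal markers tested 3 were called lower, and 1 of 9 cone markers was called higher. The part of cell types in the members' values was not tested. The 95% interval lay within a 1.25-fold change for 34 of the 36 genes (94.4%), all but Kif17 and Tulp2, against 62.8% of all genes. Above 10 CPM these shares were 100% of 34 members and 90.1% of genes.

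In young mice, NACET left no member with an unadjusted p under 0.05, against 4.36% of all genes. None of the 16588 genes tested was called (0%) by edgeR, and DESeq2 called none. CPM of the groups overlapped for all 36 members, where 0.784% of all genes did not overlap. The smallest p belonged to Kif3b, the kinesin-2 motor subunit, at 171 ± 8.83 CPM in controls and 159 ± 12.6 CPM with NACET (log2 -0.11, SE 0.07). Kif17 (-0.21, SE 0.13), Dync2li1 (0.13, SE 0.08), Bbs4 (-0.13, SE 0.08) and Bbs10 (0.10, SE 0.08) followed, each with an edgeR adjusted p of 1. The difference of Dync2li1 became -0.10 when the age recorded as batch, 119 or 129 days, was added to the fit, a recorded age that differed between the controls and most treated mice. The median log2 difference over the members was -0.01, and the 95% interval lay within a 1.25-fold change for 32 members (88.9%) against 56.4% of all genes, or 94.1% against 84.6% above 10 CPM.

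Whether NACET acted differently at the 2 ages was tested as an interaction over all 20 libraries. No member and none of the 16993 genes was called (0%) by edgeR, and DESeq2 called 86 genes but no member. At an unadjusted p under 0.05 there were 3 members (8.33%), against 6.19% of all genes. They were Bbs10 (interaction log2 -0.27, SE 0.09, edgeR adjusted p = 0.545), Kif17 (0.38, SE 0.16, adjusted p = 0.685) and Kif3b (0.19, SE 0.09, adjusted p = 0.784). Bbs10 had a mean of 17.1 CPM in young controls, 18.4 with NACET in the young, 18.6 in old controls and 16.6 with NACET in the old. Ift52 (-0.14, SE 0.07) and Dync2li1 (-0.23, SE 0.12) were next. The intervals were wider here, and those of 26 members (72.2%) lay within a 1.25-fold change in either direction, against 39.5% of all genes. Among genes with a mean of 10 CPM or more the shares were 76.5% for the members and 63.7% for all.

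Other ciliary genes gave context to the members. Their lists were chosen with earlier results of these data known, so the shares of called genes are no test of the lists. Of 16 components of IFT and the BBSome under other symbols, 2 were called lower in old than in young NACET mice, where 4.88% of all genes were called: the IFT-A subunit Wdr35 (log2 -0.25, SE 0.05, edgeR adjusted p = 0.0110) and the IFT-B subunit Ttc30a1 (-0.23, SE 0.06, adjusted p = 0.0488). Wdr35 stood at 73.9 ± 5.52 CPM in young and 62.1 ± 3.17 CPM in old NACET mice, and at 73.5 ± 3.23 and 65.6 ± 3.73 CPM in young and old controls. With NACET in old mice, 1 of the 16 was called, against 0.543% of all genes, the IFT-B subunit Ttc26, at 19.1 ± 1.69 CPM in old controls and 14.8 ± 1.03 CPM with NACET (log2 -0.37, SE 0.07, adjusted p = 0.0464). Most of these treated mice were younger than the old controls. Among mice of 668 days alone, 0 of 16839 genes were called. With the age cohort as a covariate, 1 of 16562 genes was called. No gene of the list was called between untreated young and old mice or by NACET in young mice.

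Of 21 genes of the transition zone, the gate at the base of the cilium, Cc2d2a and Tctn2 were called lower and Ahi1 higher in old than in young NACET mice, against the same 4.88% of all genes. With NACET in old mice 1 of the 21 was called, Cc2d2a, lower (log2 -0.37, SE 0.05, edgeR adjusted p = 0.0103), against 0.543% of all genes. The limit of age given for Ttc26 applies here too, and this list was also chosen with earlier results of these data known. None of the 13 genes of the lipidated cargo route, such as Unc119 and Pde6d, and none of the 11 ciliary kinases and RFX or FOXJ1 factors was called in any comparison. Among the factors that bind the X-box, Rfx2 had the smallest p, at 7.98 ± 0.85 CPM in young and 10.5 ± 1.92 CPM in old NACET mice (log2 0.40, SE 0.11, adjusted p = 0.0551).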

How the data were processed

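RNA was sequenced from 1 retina of each of 20 mice (TruSeq v2, single end, no strand). The deposited files hold whole-number read counts per gene: the authors aligned reads to mm9 with TopHat2 2.1.0 and counted them over exons with HTSeq 0.11.2, in its intersection-nonempty mode and ignoring strand, so that reads in exons shared by 2 genes count for neither. They removed rRNA genes before their own tests. The annotation used for counting is not given in the sources used here. A row without a gene name (at most 0.0022% of counts) and the rows of unassigned reads were left out. Counts were scaled by TMM and tested with edgeR 4.0.16 in R 4.3.3 (filterByExpr, quasi-likelihood F test, Benjamini-Hochberg over all genes tested, called at an adjusted p under 0.05), 1 fit for each pair of groups and 1 over all 20 libraries for the interaction, without covariates, and DESeq2 1.42.0 was an alternative. SE was the absolute log2 difference divided by the square root of F, and 95% intervals used the t distribution of the fit. Each library is 1 mouse, and libraries of a group differed by more than sampling noise. Libraries held 17700500 to 31081959 counts, and 34 of the 36 members had a mean of 10 CPM or more. Members and lists were chosen with earlier results of these data known. Members were all given, and described in full were those called in any comparison and the 5 with the smallest p in each. From the other lists, called genes and at most the 3 smallest p were named, and single marker genes were picked after their values were seen. Alternatives covered normalization, filters, the replicate number as a block, leaving out each library, all groups in 1 fit, sex, and age cohorts.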

Additional observations from a re-analysis of the deposited data

Results flagged for a closer look

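Within each group of 4 or 6 libraries, a library was singled out when its gap to the nearest other library was too large a part of the group's range by Dixon's test. Chance alone singles out about 1 in 20 groups, which would be 7.2 of the 144 groups formed by 36 members in 4 groups, and 5 were found. Bbs10 stood at 14.7 CPM in old NACET replicate 3, where the other 5 mice had 16.6 to 17.6 CPM, and without that mouse its log2 difference from the old controls was -0.13 (edgeR adjusted p = 0.364). Bbs12 reached 50.8 CPM in young control replicate 1 against 41.4 to 42.4 CPM in the others. In old control replicate 1, Bbs4 was at 197.7 CPM against 218 to 221 CPM, and Bbs9 was at 121.8 CPM against 144 to 146 CPM. Ttc21b was at 33.3 CPM in old NACET replicate 4 against 37.4 to 39.7 CPM.

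Among the 36 groups formed by the 9 marker lists, 4 libraries were singled out. Pigment epithelium markers summed to 194.7 CPM in young control replicate 4 against 45.8 to 62.5 CPM in the other young controls. Corneal markers reached 447.6 CPM in old control replicate 2 against at most 53.3 CPM, and microglia markers 35.2 CPM in the same library against at most 30.3 CPM. Lens markers reached 10807 CPM in old NACET replicate 1 against at most 1.85 CPM in the other old NACET mice. Their part in the members' values was not tested.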

How the results depend on the processing

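The number of members called between old and young controls was 0, and became 1 with DESeq2 (Bbs1), 1 with all 4 groups in 1 fit (Bbs1), and from 0 to 1 when a library was left out (Bbs12 without young control replicate 1). Between old and young NACET mice the 3 calls became 4 with DESeq2 and with all groups in 1 fit (Kif17 added), 2 in labelled males only (Tulp3 lost), and from 2 to 4 when a library was left out. With the old NACET group limited to the 2 mice of 668 days there were 0 calls, and with the 4 mice of 574 and 581 days 1 (Bbs1), both fits added after seeing the data and resting on fewer mice. The counts for NACET in old mice, NACET in young mice and the interaction were 0 in every setting run, library totals without TMM (also added later) included. Over all genes, called counts ranged from 69 to 710 for age in controls, from 151 to 1325 for age under NACET, from 0 to 373 and from 0 to 8 for NACET in old and young mice, and from 0 to 86 for the interaction, with the highest count from DESeq2 except in young mice. Of the log2 differences of members described in full, 523 values under other settings kept direction and side of the threshold, 6 passed it, 10 lost it and 1 turned direction, Dync2li1 with NACET in young mice at -0.10 with the 119 and 129 day batch as a covariate. With the replicate number as a block, 2 members (Bbs1 and Dync2li1) were called between old and young NACET mice, Tulp3 had an edgeR adjusted p of 0.0944, and no other comparison had a called member. Same-numbered libraries did not deviate together (correlations from -0.16 to 0.13, none of them highest with its own number), so they share only a number. Tulp2, at under 1 CPM, is the member whose depth limits it most.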

Other observations

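Motile cilia, whose axonemes carry outer dynein arms and radial spokes that primary cilia lack, are not part of the photoreceptor, but some of their genes were measured. Of 7 motile cilium genes with enough reads, Dnaic2, an intermediate chain of the outer dynein arm, fell with age in both comparisons, where 1.42% of all genes were called in controls and 4.88% under NACET. It stood at 4.76 ± 0.50 CPM in young and 2.45 ± 0.63 CPM in old controls (log2 -0.95, SE 0.18, edgeR adjusted p = 0.0267), and at 4.60 ± 1.02 CPM in young and 1.89 ± 0.15 CPM in old NACET mice (log2 -1.28, SE 0.14, adjusted p = 4.91e-05). The values did not overlap between ages, with 3.71 CPM the lowest young and 3.21 CPM the highest old mouse. The other 6 genes were not called in either age comparison, Hydin having a log2 difference of -0.55 (SE 0.20, adjusted p = 0.213) in controls and Dnaic1 -0.59 (SE 0.17, adjusted p = 0.0514) under NACET.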
